A study of Xenopus tropicalis with 4 samples.

Results

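irf8, stat2 and c3ar1 are 3 genes of innate immunity, picked out of the 34178 gene identifiers counted in Xenopus tropicalis animal caps (ACs). They were found by their names in the authors' result tables, and 4 further genes of the irf and stat families in the same tables are described beside them: irf1, irf2, irf5 and stat3.1. The 3 genes were selected on their read counts in the comparison below, H1H2Mo against CoMo, so that their levels and fold changes are a description and carry no test. ACs are explants of the prospective ectoderm, cut from the blastula, that form epidermis in culture. Embryos had been injected with a control morpholino (CoMo) or with translation-blocking morpholinos against suv4-20h1 and suv4-20h2 together (H1H2Mo, the SUV4-20H dMO condition), and the ACs were harvested at NF16, the neurula stage. The SUV4-20H enzymes add further methyl groups to a lysine of histone H4 that already carries one. There were 2 libraries per condition, called biological replicates in the series' design, each made from the RNA of a pool of ACs. A knockdown in pooled explants reports on the RNA of the whole explant, and fewer cells of a type cannot be told apart from less RNA per cell.

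Interferon regulatory factors (IRFs) are transcription factors that bind interferon-responsive DNA elements, while STATs are latent transcription factors that Janus kinases (JAKs) activate at cytokine receptors. IRF8 drives the development of myeloid cells in mammals, and STAT2 works with IRF9 in the complex that turns on genes after type I interferon. C3AR1 is the G protein-coupled receptor for C3a, a fragment released when complement is activated, and in Xenopus C3a and its receptor also attract neural crest cells to each other.

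The libraries held between 17054150 and 47407319 reverse-strand reads on genes, and CoMo replicate 2 was the deepest. Levels are given as CPM, counts scaled to library size by edgeR's TMM method, and compare one gene between libraries, not different genes. H1H2Mo was set against CoMo over 19372 genes tested with edgeR's quasi-likelihood test, and a gene is called when its Benjamini-Hochberg adjusted p is under 0.05. Of the genes tested, 16.5% were called, 5.83% higher and 10.7% lower in H1H2Mo, and the median log2 fold change was 0.05. The CPM of the 2 H1H2Mo libraries did not overlap that of the 2 CoMo libraries for 59.5% of the genes tested, 28.8% with H1H2Mo higher and 30.7% with H1H2Mo lower. The mRNA of the morpholino targets is no check of a translation block: suv420h1 had a log2 fold change of −0.44 ± 0.31 (SE, adjusted p = 0.39) and kmt5c, the suv4-20h2 gene, of 1.59 ± 0.33 (adjusted p = 0.0055) in edgeR's test. The 3 epidermal markers krt12, tp63 and grhl2 were detected in all 4 libraries. Their summed level was 558 and 662 CPM in CoMo against 98.6 and 164 CPM in H1H2Mo.

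irf8 was nearly absent from the H1H2Mo libraries. The gene (gene24663, chromosome 4) collected 124 and 260 reads in CoMo replicates 1 and 2, and 9 and 3 reads in H1H2Mo replicates 1 and 2. These counts amount to 7.55 and 5.92 CPM in CoMo and to 0.324 and 0.167 CPM in H1H2Mo. The conditions did not overlap, and the closest pair of libraries, CoMo replicate 2 and H1H2Mo replicate 1, differed 18.3-fold. The log2 fold change of irf8 was −4.70 ± 0.65 (SE, n = 2 against 2), and it ranked 154 from the lowest over the genes tested. The depth leaves the H1H2Mo level itself loosely fixed, with exact Poisson 95% intervals of 0.148 to 0.615 CPM and of 0.0345 to 0.489 CPM, which cover counting error only. The lower bounds of the CoMo libraries were 6.28 and 5.22 CPM. Without H1H2Mo replicate 1 the log2 fold change was −5.28, and without any of the other libraries it was between −4.35 and −4.85.

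stat2 was lower in H1H2Mo by a smaller factor. The gene (gene4696, chromosome 2) had 191 and 437 reads in CoMo and 119 and 57 reads in H1H2Mo. Its level was 11.6 and 9.95 CPM after CoMo injection, against 4.29 and 3.18 CPM after H1H2Mo injection. The lowest CoMo library stood 2.32-fold above the highest H1H2Mo library, so that the conditions did not overlap. The log2 fold change of stat2 was −1.53 ± 0.43 (SE, n = 2 against 2) and ranked 2671 from the lowest. It ran from −1.32 to −1.75 when each library was left out in turn.

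c3ar1 was the member with more RNA in H1H2Mo. The gene (gene6495, chromosome 7) had 81 and 223 reads in CoMo, and 1134 and 534 reads in H1H2Mo. The CoMo libraries lay close together at 4.93 and 5.08 CPM, while the H1H2Mo libraries reached 40.8 and 29.8 CPM. Every H1H2Mo library was at least 5.87-fold above every CoMo library. The log2 fold change of c3ar1 was 2.82 ± 0.38 (SE, n = 2 against 2), and it ranked 301 from the highest. It was between 2.58 and 3.03 when each library was left out in turn, the lowest value without H1H2Mo replicate 1.

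**Figure D1:**
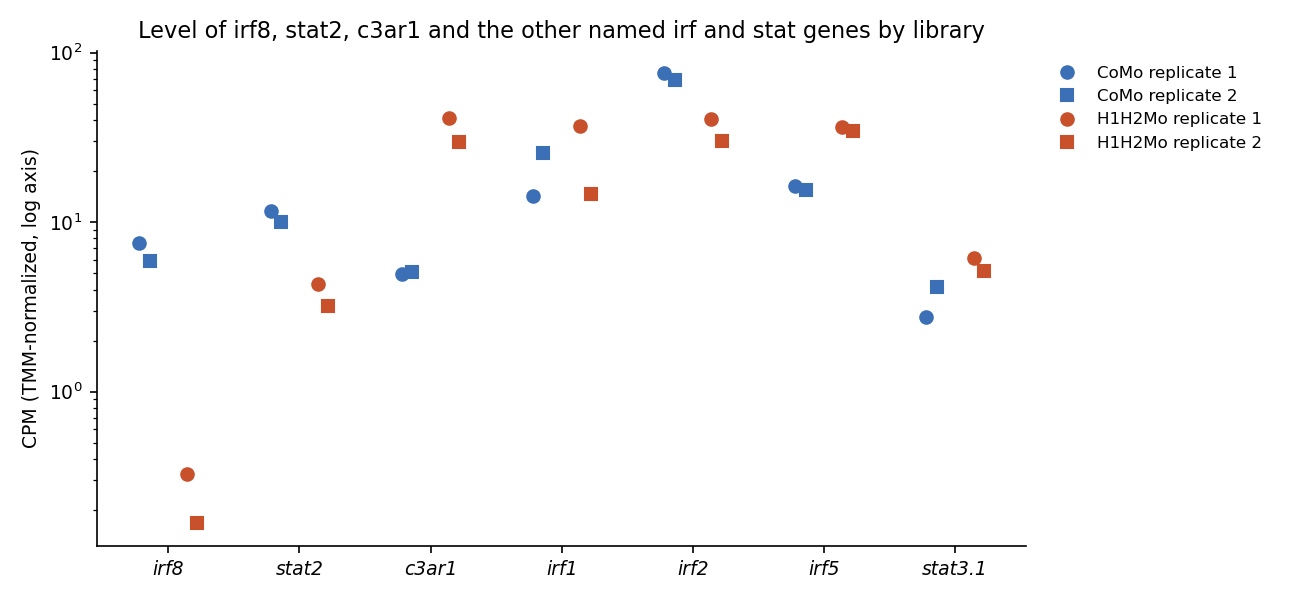
CPM (TMM-normalized, log axis) of irf8, stat2, c3ar1 and the other 4 irf and stat genes, with 1 point per library (blue, CoMo; orange, H1H2Mo; circles, replicate 1; squares, replicate 2). irf8 had 7.55 and 5.92 CPM in CoMo, against 0.324 and 0.167 CPM in H1H2Mo, c3ar1 was higher in both H1H2Mo libraries, and irf1 is the gene whose conditions overlap.

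irf1, irf2, irf5 and stat3.1 differed in both directions, with log2 fold changes from −1.03 to 1.15. They are named by tables of other libraries and could be tested in this contrast. Of the 4407 genes tested that are named in that way only, 12.6% were called, 6.26% higher and 6.33% lower in H1H2Mo. Of these 4 irf and stat genes, 1 was called higher and 1 lower. irf5 acts downstream of Toll-like receptors in mammals and irf2 opposes irf1 at interferon-responsive elements.

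irf5 (gene3212, chromosome 3) had 16.3 and 15.4 CPM in CoMo, against 36.2 and 34.3 CPM in H1H2Mo. The replicates of irf5 were close to each other in both conditions, and every H1H2Mo library was at least 2.11-fold above every CoMo library. It rose by a log2 fold change of 1.15 ± 0.33 (SE, adjusted p = 0.032, edgeR). The call was lost without CoMo replicate 1 (adjusted p = 0.25) and without CoMo replicate 2 (adjusted p = 0.22), at log2 fold changes of 1.21 and 1.13.

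irf2 (gene5998, chromosome 1) had 75.5 and 68.6 CPM in CoMo, against 40.5 and 30.1 CPM in H1H2Mo, again without overlap. Its log2 fold change was −1.03 ± 0.32 (SE), which lies just inside the threshold of edgeR's test (adjusted p = 0.047). The call of irf2 did not hold with upper-quartile scaling (adjusted p = 0.065) or with scaling to library size alone (adjusted p = 0.086). It was also lost without CoMo replicate 1 (adjusted p = 0.34), without CoMo replicate 2 (adjusted p = 0.21) and without H1H2Mo replicate 2 (adjusted p = 0.089), while the log2 fold change stayed between −0.82 and −1.25 over the libraries left out.

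irf1 (gene2976, chromosome 3), whose product activates interferon-stimulated genes, had 14.3 and 25.4 CPM in CoMo, against 36.9 and 14.6 CPM in H1H2Mo. The conditions overlapped, and the highest library and the second lowest both belonged to H1H2Mo. The log2 fold change of irf1 was 0.37 ± 0.45 (SE, adjusted p = 0.63, edgeR), and it was −0.44 without H1H2Mo replicate 1.

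stat3.1 (gene23277, on scaffold_113) is a copy of stat3, the STAT that acts downstream of interleukin 6 family cytokines. It had 2.74 and 4.12 CPM in CoMo, against 6.12 and 5.13 CPM in H1H2Mo. The H1H2Mo libraries were both above the CoMo libraries, by as little as 1.25-fold. Its log2 fold change of 0.70 ± 0.49 (SE) did not pass edgeR's test (adjusted p = 0.37). The RefSeq gene table (assembly UCB_Xtro_10.0) lists stat3.2 beside it, and reads that map to both copies are not in these counts, which makes the level of stat3.1 uncertain.

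**Figure D2:**
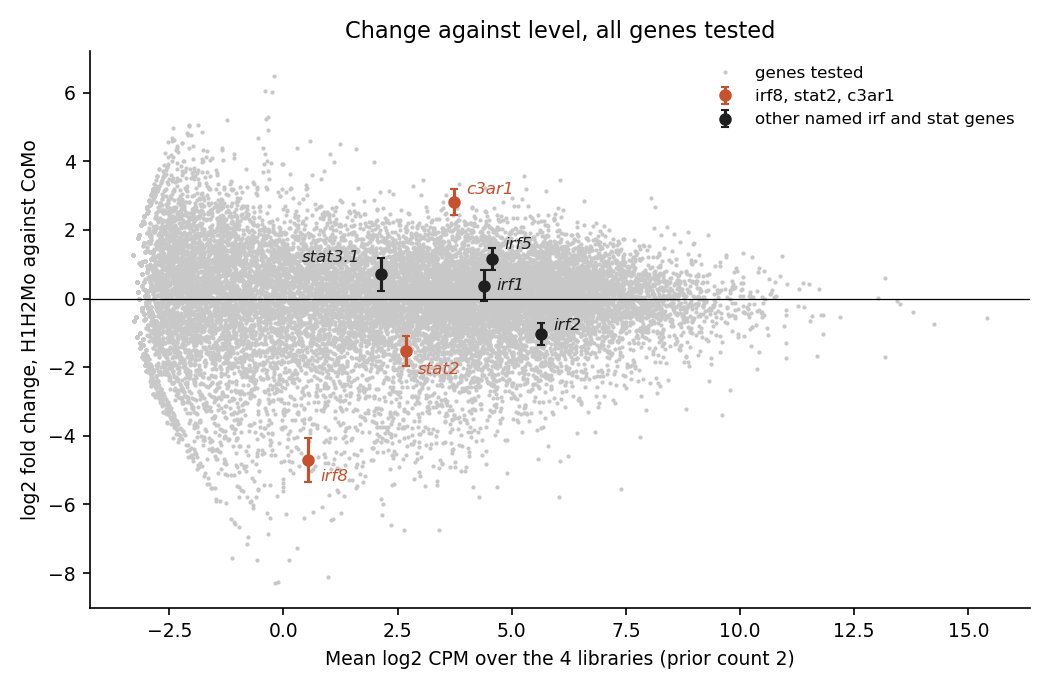
Log2 fold change, H1H2Mo against CoMo, against the mean log2 CPM over the 4 libraries for the 19372 genes tested (grey), with irf8, stat2 and c3ar1 in orange and the other irf and stat genes in black (bars, SE). irf8 at −4.70 and c3ar1 at 2.82 lie near the edges of the cloud at their levels, while stat2 at −1.53 lies within it.

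The genes whose profile over the 4 libraries was most like that of each member were looked up among 5085 genes with a symbol, by the Euclidean distance between centred log2 CPM values. For irf8 these were vstm5 (distance 0.19), c4orf22 (0.20) and adora2a, an adenosine receptor (0.33). adora2a, for instance, had 55.6 and 54.9 CPM in CoMo, against 3.57 and 2.34 CPM in H1H2Mo. For stat2 they were grhl2, a transcription factor of epithelia (0.08), zfhx4, a homeodomain and zinc finger factor (0.08), and rph3al, a Rab effector of secretion (0.08). grhl2 went from 39.7 and 31.9 CPM in CoMo to 13.8 and 10.4 CPM in H1H2Mo, and it is also one of the epidermal markers above.

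For c3ar1 the nearest genes were the kinase stk35 (0.28), haus5, which encodes a subunit of the augmin complex of the spindle (0.34), and hes3.1, a transcriptional repressor of the Hes family (0.36). hes3.1 had 9.26 and 12.3 CPM in CoMo, against 97.8 and 55.8 CPM in H1H2Mo. Profiles of 4 libraries are short, and any gene with a like difference between the conditions comes out near. All 9 of these genes carry a name from the authors' table of this contrast.

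**Figure D3:**
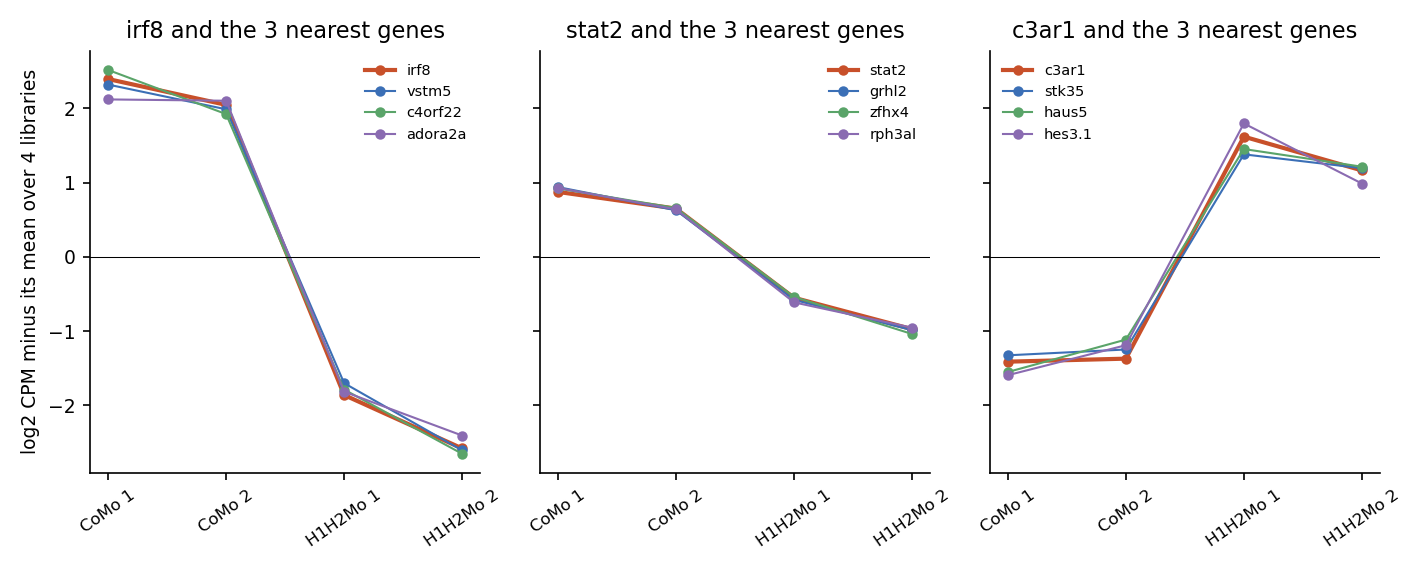
Log2 CPM of irf8, stat2 and c3ar1 (thick orange lines) and of the 3 genes nearest to each, minus the gene's mean over the 4 libraries, by library. The distances are 0.19 to 0.33 for irf8, 0.08 for stat2 and 0.28 to 0.36 for c3ar1.

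Reads on the opposite strand were counted apart in the deposited files. irf8 had no such read in any library, which a count of 0 limits to 0.0683 to 0.183 CPM per library (3 counts). stat2 had 0 and 2 in CoMo and 2 and 0 in H1H2Mo. c3ar1 had 13 and 30 opposite-strand reads in CoMo, which is 13.8% and 11.9% of its reads, and 97 and 16 in H1H2Mo, which is 7.88% and 2.91%. The median share over all genes tested was at most 0.516% in each library, and c3ar1 was above it in all 4. Over all stranded reads on genes, the reverse strand held 97.99% in H1H2Mo replicate 2. The 2.91% of c3ar1 there was thus little above the remainder. A high share is not particular to c3ar1 in H1H2Mo, where irf5 had 8.64% and 4.21%. With the counts of either strand together the log2 fold change of c3ar1 was 2.68.

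The genes that surround the members in these pathways were counted in 6 lists of symbols, 61 identifiers of which were tested. Of these, 8 were called higher and 10 lower in H1H2Mo. Over all genes tested 16.5% were called, 5.83% higher and 10.7% lower, to be set beside the count of each list below. Symbols are known only for the 6391 genes tested that the authors' tables name. A place in the table of this contrast mostly goes with a small p, though cd79b (adjusted p = 0.27, edgeR) and csf2rb (not tested) also have one. Of the 17 tested list genes named by that table, 16 were called, which is no evidence about the lists. Of the 44 named by tables of other libraries only, 2 were called, 4.55% beside the 12.6% of all genes named in that way. edgeR left 7 of the 44 at an unadjusted p under 0.05, and DESeq2 called 3. The 44 remain after genes named by this contrast, mostly with a small p, were set apart. Few calls among them, here and in each list below, were partly set in advance and are no evidence either. The 12.6% is not matched for level, and gbp7, for instance, had only 4 and 2 reads in CoMo and 3 and 0 in H1H2Mo.

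Among the receptors through which cytokines reach the JAKs and STATs, 1 of 8 tested was called higher and 2 lower, with a median log2 fold change of −0.90. ifngr2.2, a chain of the interferon gamma receptor, had 4.14 and 6.74 CPM in CoMo, against 19.8 and 26.3 CPM in H1H2Mo (log2 fold change 2.07). il10rb, a chain shared by the receptors of interleukin 10 and related cytokines, had 8.96 and 11.2 CPM in CoMo, against 3.21 and 1.34 CPM in H1H2Mo (log2 fold change −2.13). Both ifngr2.2 and il10rb are named by the table of this contrast. il20ra, a receptor chain for interleukin 20, is not, and it fell from 46 and 109 reads in CoMo to 1 and 10 reads in H1H2Mo, a log2 fold change of −3.24 ± 0.96 (SE, adjusted p = 0.036, edgeR). The call of il20ra was lost without CoMo replicate 1 (adjusted p = 0.23), without CoMo replicate 2 (adjusted p = 0.18) and without H1H2Mo replicate 1 (adjusted p = 0.071), and with a filter on a mean of at least 10 counts (adjusted p = 0.058). Its log2 fold change was −2.22 without H1H2Mo replicate 1 and −6.03 without H1H2Mo replicate 2.

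Of 11 identifiers of JAK and STAT kinases and regulators, 2 were called higher and 1 lower, with a median log2 fold change of 0.32. jak1, the kinase that serves interferon receptors among others, was called lower and had 42.4 and 40.6 CPM in CoMo against 9.26 and 7.59 CPM in H1H2Mo (log2 fold change −2.30). ptpn2, a phosphatase that acts on JAKs and STATs, had 26.9 and 33.6 CPM in CoMo, against 77.2 and 98.6 CPM in H1H2Mo (log2 fold change 1.54). Both jak1 and ptpn2 are named by the table of this contrast. pias4, a SUMO ligase that inhibits STATs, is the one of the 9 identifiers named elsewhere that was called. It rose from 65.98 and 84.2 CPM in CoMo to 172 and 173 CPM in H1H2Mo, which is 1.198 ± 0.33 on the log2 scale (SE, adjusted p = 0.024, edgeR). jak2 and both identifiers of socs3, a feedback inhibitor, overlapped between the conditions.

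Of 10 tested genes that interferon induces or that act against viruses in other vertebrates, 1 was called higher and 1 lower, a share near the 16.5% of all genes tested. The median log2 fold change of the list was 0.41. samd9l-like.2, related to an antiviral gene of mammals, had 7.74 and 8.40 CPM in CoMo, against 40.6 and 22.4 CPM in H1H2Mo (log2 fold change 1.96). tmem173, which encodes the sensor adaptor STING, had 7.25 and 3.71 CPM in CoMo, against 1.15 and 0.614 CPM in H1H2Mo (log2 fold change −2.60). Both carry a name from the table of this contrast. Of the 8 named elsewhere, among them the RNA sensor gene dhx58 and the guanylate-binding protein gene gbp5, edgeR called 0, with 0 at an unadjusted p under 0.05 and 0 called by DESeq2, which gave 2 of them no adjusted p. ifit5 had no read in any library.

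Of 14 genes of pattern recognition and NF-kB signalling, 2 were called higher and 3 lower, with a median log2 fold change of 0.11. Those higher were irak1, a kinase downstream of Toll-like receptors (5.36 and 4.46 CPM in CoMo, 30.5 and 24.99 CPM in H1H2Mo, log2 fold change 2.50), and il17rd, an interleukin 17 receptor family gene known as an inhibitor of FGF signalling (log2 fold change 2.01). Those lower were the receptor genes tlr6, nod1 and nlrc4, at log2 fold changes of −3.31, −2.22 and −1.52. tlr6 rested on 22 and 2 reads in H1H2Mo, against 129 and 77 in CoMo, and its log2 fold change was −1.86 without CoMo replicate 1 (adjusted p = 0.44, edgeR) and −5.34 without H1H2Mo replicate 1. All 5 are named by the table of this contrast. Of the 9 named elsewhere, nfkb1 and nfkbia among them, edgeR called 0, with 0 at an unadjusted p under 0.05 and 0 called by DESeq2.

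Of 6 complement genes, 1 was called and it was lower. The gene c3 is not on this list. c9, a part of the membrane attack pore, had 670 and 438 CPM in CoMo, against 255 and 102 CPM in H1H2Mo (log2 fold change −1.64), and it is named by the table of this contrast. The median of the list was 0.32. The factor B gene cfb had 94.8 and 53.9 CPM in CoMo, against 69.9 and 38.2 CPM in H1H2Mo, which overlap. Of the 5 complement genes named elsewhere, edgeR called 0, with 0 at an unadjusted p under 0.05 and 0 called by DESeq2, which gave 1 no adjusted p.

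**Figure D4:**
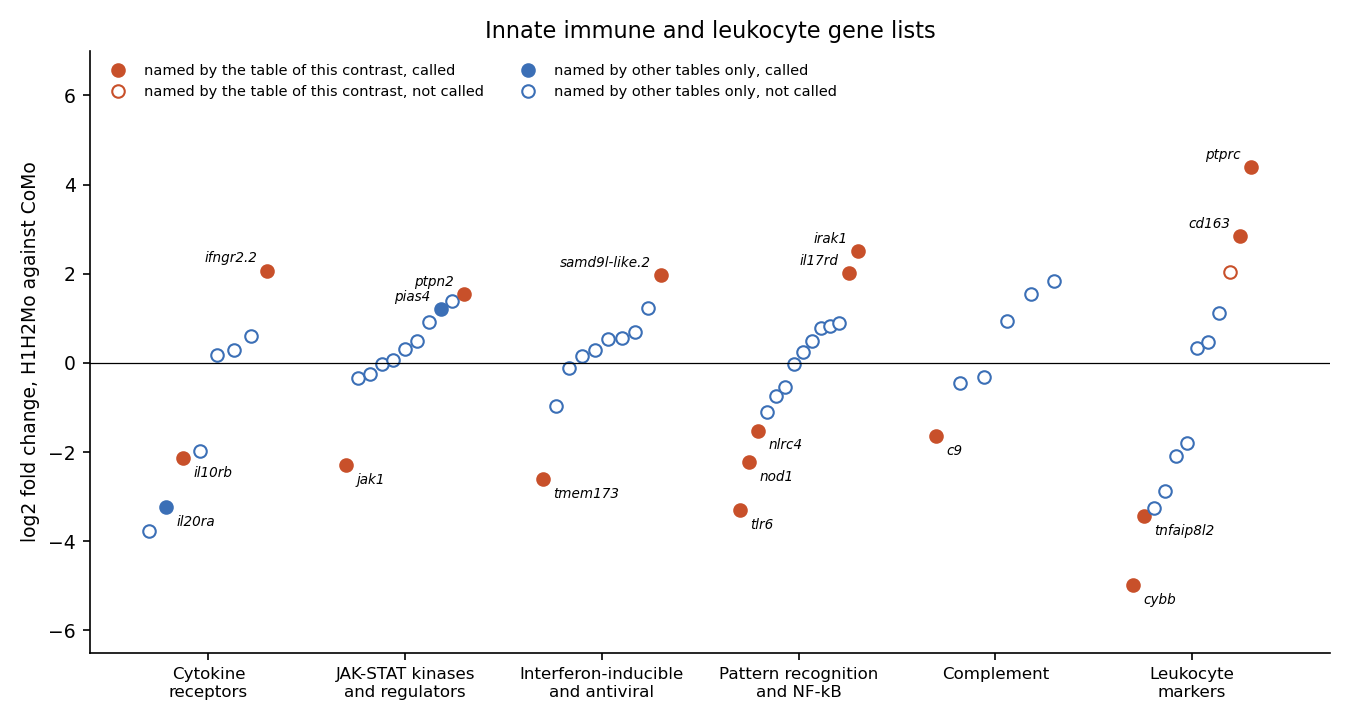
Log2 fold change, H1H2Mo against CoMo, of the genes tested in 6 lists, 1 point per identifier, ordered within each list (orange, named by the authors' table of this contrast; blue, named by other tables only; filled, called at an adjusted p under 0.05). The 18 filled points carry their symbols, and 16 of them are orange.

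irf8 is best known from leukocytes, and 12 leukocyte markers were therefore listed beside it. Their summed level was 34.1 and 37.0 CPM in CoMo, against 38.8 and 32.9 CPM in H1H2Mo, ranges that overlap. The sum adds markers that went opposite ways and is no measure of leukocyte content. Of the 12, 2 were called higher and 2 lower, and the median log2 fold change was −0.73. The defining factor spi1 (PU.1) had 9 and 7 reads in CoMo and 2 and 0 in H1H2Mo, and the neutrophil enzyme gene mpo had 7 and 5 reads against 1 and 2. The related factor spib had 20 and 13 reads in CoMo and 0 and 3 in H1H2Mo. None of spi1, mpo and spib was called. Scaled for depth, mpo had 0.426 and 0.114 CPM in CoMo, against 0.0360 and 0.112 CPM in H1H2Mo. Among the other uncalled markers cebpe had a log2 fold change of −2.08. Those of cd79b, runx1, cebpa and batf were positive, at 2.04, 1.11, 0.47 and 0.33.

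The leukocyte markers called went opposite ways. cybb, a subunit of the phagocyte NADPH oxidase, had 5.79 and 4.58 CPM in CoMo, against 0.108 and 0.223 CPM in H1H2Mo (log2 fold change −4.99). tnfaip8l2, a dampener of immune signalling in mice, had 20.1 and 13.6 CPM in CoMo, against 1.91 and 1.17 CPM in H1H2Mo (log2 fold change −3.43). These 2 genes were lower in the same libraries as irf8. The level of cybb in H1H2Mo rests on 3 and 4 reads. In CoMo, ptprc rests on 4 and 15 reads and cd163 on 4 and 125, so that the size of these changes is loosely fixed. ptprc, which encodes CD45, had 0.244 and 0.342 CPM in CoMo, against 1.44 and 11.5 CPM in H1H2Mo (log2 fold change 4.39). Without H1H2Mo replicate 2 the log2 fold change of ptprc was 2.25 (adjusted p = 0.058, edgeR), and without H1H2Mo replicate 1 it was 5.23. cd163, a scavenger receptor gene of macrophages, had 0.244 and 2.85 CPM in CoMo, against 11.6 and 11.9 CPM in H1H2Mo (log2 fold change 2.84). Its log2 fold change was 2.06 without CoMo replicate 1 (adjusted p = 0.13, edgeR) and 5.57 without CoMo replicate 2.

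As a ratio, the replicates of ptprc and cd163 differed more than those of cybb and tnfaip8l2 in at least 1 condition. All 4 are named by the table of this contrast. Of the 7 leukocyte markers named elsewhere, edgeR called 0, with 2 at an unadjusted p under 0.05 and 1 called by DESeq2, which gave 2 no adjusted p. The part of a change in leukocyte number in the irf8 and c3ar1 levels was not tested.

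**Figure D5:**
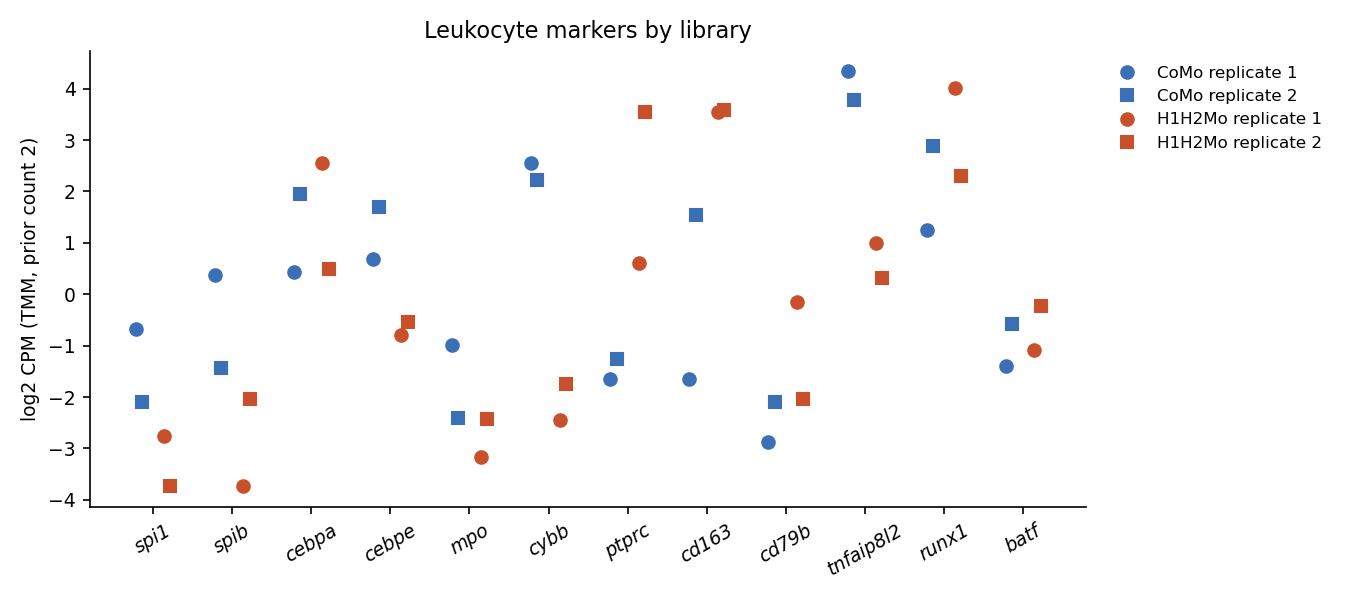
Log2 CPM (TMM, prior count 2) of the 12 leukocyte markers, 1 point per library (blue, CoMo; orange, H1H2Mo; circles, replicate 1; squares, replicate 2). cybb and tnfaip8l2 were lower and ptprc and cd163 higher in both H1H2Mo libraries, and spi1, spib and mpo rest on at most 20 reads in any library. Few reads also underlie cybb in H1H2Mo (3 and 4), ptprc in CoMo (4 and 15) and cd163 in CoMo replicate 1 (4).

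Markers of the cell types of the epidermis were partly lower in the same libraries as irf8 and stat2. Of the listed genes, 3 of 3 of the epidermis, 3 of 3 of small secretory cells, 5 of 8 of multiciliated cells, 3 of 7 of ionocytes and 2 of 3 of goblet cells were called lower. Over all genes tested, 10.7% were called lower and 5.83% higher. CPM did not overlap between the conditions for 30.7% with H1H2Mo lower and 28.8% with H1H2Mo higher. The small secretory cell markers foxa1, ddc and chga together had 1509 and 1087 CPM in CoMo, against 21.1 and 37.5 CPM in H1H2Mo. The neural markers ncam1, tubb3 and elavl3, 3 of 3 called lower, had 121 and 27.6 CPM in CoMo, against 4.21 and 6.80 CPM in H1H2Mo. Except for ccdc78 of the multiciliated cell list, these lower genes carry a name from the table of this contrast, so that their number is no evidence of its own. Other markers of these cell types were not called lower. Of these, foxj1 of multiciliated cells and ca12 of ionocytes were still lower in both H1H2Mo libraries, at log2 fold changes of −0.88 and −1.15. The multiciliated cell gene mci-like had 58.7 and 84.1 CPM in CoMo, against 93.5 and 285 CPM in H1H2Mo (log2 fold change 1.40, not called), and ubp1 of the ionocyte list was also higher in both H1H2Mo libraries without being called. rfx2, foxi1 and otog overlapped between the conditions. dmrt2, listed with the ionocytes, was called higher at 18.3 and 28.6 CPM in CoMo, against 30.8 and 145 CPM in H1H2Mo. That call was lost without either CoMo library and without H1H2Mo replicate 2, where the log2 fold change was 0.40 (adjusted p = 0.49, edgeR) in place of 1.91. The summed level of the multiciliated cell list was 1309 and 1209 CPM in CoMo, against 428 and 854 CPM in H1H2Mo. Much of the H1H2Mo sums was mci-like and rfx2, which were not called. rfx2 had 335 and 412 CPM in CoMo, against 204 and 361 CPM in H1H2Mo. The ionocyte list overlapped, with sums of 497 and 385 CPM in CoMo, against 213 and 418 CPM in H1H2Mo. So did the goblet cell list, with 1835 and 1457 CPM in CoMo, against 2457 and 701 CPM in H1H2Mo. Most of that sum was otog, at 874 and 1011 CPM in CoMo against 2268 and 639 CPM in H1H2Mo. itln1 and itln2 were lower without overlap. Of 3 muscle genes 1, myl1, was called lower, and of the 2 genes of endoderm and endothelium edgeR called 0, with 1 at an unadjusted p under 0.05 and 1 called by DESeq2. The part of these cell types in the levels of irf8 and stat2 was not tested.

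Of the 18 called genes in the 6 lists, all kept their direction when each library was left out in turn. Their CPM did not overlap between the conditions, so that this was largely set in advance and is no support. Of the 18, 16 are named by the table of this contrast, and the counts that follow are no evidence about the lists. Without CoMo replicate 1 or without CoMo replicate 2, 4 of the 18 were called, while 17 were called without H1H2Mo replicate 1 and 16 without H1H2Mo replicate 2. Over all genes, 542 were called without CoMo replicate 1 and 879 without CoMo replicate 2, against 3196 with all 4 libraries.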

How the data were processed

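The 4 RNA-seq libraries of NF16 ACs, directional and depleted of rRNA, were grouped by the sample labels, 2 as CoMo and 2 as H1H2Mo. The authors aligned paired-end reads to the Xenbase X. tropicalis v9.1 genome with STAR 2.7.1a, counted uniquely mapped reads per gene in the same run with gene models converted by Cufflinks gffread, and deposited the counts without normalization, for either strand and for each strand. The reverse-strand counts were used, which hold 97.49% to 98.16% of the stranded reads on genes of each library.

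Genes passed the filter with 1 read or more in 75% of the libraries and were tested with edgeR 4.0.16 (TMM, quasi-likelihood test, Benjamini-Hochberg) in R 4.3.3. Each SE is the absolute log2 fold change divided by the square root of F. A prior count of 2 was added for log2 CPM. The test was tried on simulated counts. DESeq2 1.42.0, the study's tool, was an alternative, as were RLE, upper-quartile and library-size scaling, other filters, unstranded counts, a replicate block, a threshold of 0.01 and leaving out each library, which leaves 1 sample in a condition and assumes that it varies like the others. Poisson intervals are exact at 95%.

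The members, lists and named genes were chosen with earlier results of these data known. Named are the irf and stat genes described, at most 4 called genes per list and direction with the smallest p, leukocyte markers, the 3 nearest profiles per member, and the morpholino targets. Further genes of a list are named as examples of uncalled members or of summed lists, and these were chosen after their values were seen. Symbols come from the authors' tables, which name 6622 identifiers and of which shortened copies were at hand. All 7 irf, stat and c3ar1 symbols matched 1 gene each in the RefSeq table. Sequences and coordinates were not used here, and 1 further gene of these families is not reported here. The study's text gives 3 biological replicates, and 2 per condition were at hand. The 2 libraries of a condition differed by far more than sampling noise (chi-square per degree of freedom 127 and 177).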

Additional observations from a re-analysis of the deposited data

Results flagged for a closer look

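Reads on the strand opposite to c3ar1, irf1, irf2 and irf5 were more abundant in both H1H2Mo libraries than in both CoMo libraries. The fold changes above leave these counts out, except for those with unstranded counts. More opposite-strand reads in both H1H2Mo libraries were found for 20.0% of all genes tested, so that this is not particular to these genes. For irf5 the mean was 2.46 CPM in H1H2Mo and 0.186 CPM in CoMo, a difference of 2.28 CPM. For irf2 it was 2.65 against 0.771 CPM, a difference of 1.87 CPM, and in H1H2Mo replicate 2 the opposite strand held 10.02% of the reads on irf2. For c3ar1 it was 2.19 against 0.738 CPM, a difference of 1.46 CPM. H1H2Mo replicates 1 and 2 had 3.49 and 0.892 CPM, against 0.792 and 0.683 CPM in CoMo replicates 1 and 2. The difference for c3ar1 thus came mostly from H1H2Mo replicate 1. For irf1 it was 0.311 against 0.0228 CPM, a difference of 0.289 CPM that rests on 16 reads in all.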

How the results depend on the processing

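irf8, stat2 and c3ar1 were chosen on these counts, and their closest CoMo and H1H2Mo libraries differed 18.3-, 2.32- and 5.87-fold. The alternatives reuse the same libraries, so that their direction could hardly turn, and a kept direction is no support. Under the alternatives run, irf8 lay between −4.54 and −4.77, stat2 between −1.36 and −1.54 and c3ar1 between 2.68 and 2.99 on the log2 scale. Leaving out each library gave −5.28 to −4.35 for irf8 and 2.58 to 3.03 for c3ar1. irf1 turned to −0.44 without H1H2Mo replicate 1 and ran up to 0.90 without the other libraries. Scaling to library size alone raised the median log2 fold change of all genes by 0.17 and put 47.7% of the calls on the higher side, against 35.4% with TMM.

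The 3196 genes called became 4843 with a block of crossed pairs, an alternative chosen after seeing the data, and 1543 at a threshold of 0.01. They ran from 542 to 3978 when each library was left out, lowest without a CoMo library. Same-numbered samples deviated from their group means with a correlation of −0.21 over 12536 genes. With 2 libraries per condition, crossed pairs have the same correlation with the opposite sign. It therefore cannot tell whether the libraries were paired. With the replicate block 3280 genes were called, 2990 of them the same genes. Of irf1, irf2, irf5 and stat3.1, edgeR called 0 with the block (2 at an unadjusted p under 0.05), against 2 without it, irf2 being at an adjusted p of 0.063 and irf5 at 0.054. Of these 4, 1 was called with upper-quartile scaling, 1 with library size alone, 1 with a mean of at least 10 counts and 1 with unstranded counts, and each time irf5.

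At a threshold of 0.01, 0 of these irf and stat genes were called by edgeR (2 at an unadjusted p under 0.05), 1 cytokine receptor of 3, 1 interferon-inducible gene of 2, 3 pattern recognition genes of 5 and 0 complement genes of 1 (1 at an unadjusted p under 0.05). With each library left out, the calls ran from 0 to 2 for the irf and stat genes, 0 to 3 for cytokine receptors, 1 to 4 for JAK and STAT kinases and regulators, 0 to 2 for interferon-inducible genes, 0 to 7 for pattern recognition, 0 to 1 for complement and 2 to 5 for leukocyte markers. Each 0 came without a CoMo library, where edgeR left 1 to 5 of the genes concerned at an unadjusted p under 0.05. The fits without a CoMo library and those without an H1H2Mo library alike leave 1 sample in a condition. The causes of all these shifts were not tested. irf2 was at an adjusted p of 0.057 with a mean of at least 10 counts and of 0.060 with unstranded counts in edgeR. The 9 reads or fewer of irf8 per H1H2Mo library limit how closely its level there is known.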
